A study of Mus musculus with 12 samples.

Results

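The T cell clones described here are those that took up a larger share of the T cell receptor (TCR) repertoire in the mesenteric lymph node (mLN) than in the spleen of the same mouse. A clonotype was a nucleotide sequence of the complementarity-determining region 3 (CDR3) of the TCR beta chain, and its size was its number of unique molecular identifiers (UMIs), each of which stands for 1 cDNA molecule. Within each mouse, clonotypes were chosen by their measured shares: at least 5 UMIs and at least 0.05% of the UMIs of the mLN library, and an mLN share at least 4 times the spleen share, with a sequence absent from the spleen counted as 1 UMI. Of 1677 mLN clonotypes over this floor in 6 mice, 242 were mLN-concentrated (14.4%). Without KO replicate 3, whose mLN library held 2488 UMIs, 205 of 1577 were (13%). The difference between the organs is thus what selected these clonotypes, and their organ ratios are given as a description without a test.

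All hosts were Rag2–/– mice, which make no mature T or B cells of their own, so that the sequenced T cells derive from the transferred cells. The donor cells were naive CD4+ T cells (CD25– CD44– CD62L+) of C57BL/6 background. They were transferred in a model of colitis and recovered from spleen and mLN at week 6. WT donors were PRKAA1 fl/fl and KO donors were CD4-Cre PRKAA1 fl/fl, so both carried the floxed alleles and only the KO cells the Cre. The CD4 promoter drives Cre in T cells, where recombination removes the AMPKα1 subunit of the energy sensor AMPK, which controls how cells balance nutrient use against growth. Replicates are numbered 1, 3 and 4 in WT and 1, 2 and 3 in KO, and an mLN library and a spleen library that carry the same number within a genotype were treated as 1 mouse (12 libraries from 6 mice). The data come from 1 experiment. In its colitis model the study reported the more severe disease in hosts of WT cells. Hosts of KO cells had mild inflammation and fewer T cells in the organs. Disease therefore differed with genotype, and its part in the WT and KO values below was not tested. TCR libraries carry no other transcripts, so the CD4+ label could not be set against marker genes.

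Each developing T cell joins 1 V, 1 D and 1 J segment of the TCR beta locus, and bases are trimmed and added at random at the joins, so the CDR3 sequence tags the descendants of a cell. The CDR3 loop touches the peptide presented to the T cell. In transfer colitis, naive CD4+ T cells expand in the lymphocyte-free host in response to gut antigens, and the mLN, which drains the intestine, is a site where they are primed, whereas the spleen samples cells from the blood.

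The largest mLN-concentrated clonotype of each mouse is shown so that the different V and J segments and joins of the 6 mice can be compared. The sequences run 5′ to 3′ on the coding strand, from the conserved cysteine codon at the end of V to the phenylalanine codon of J, and capitals mark the bases between the assigned ends of V and J (the D segment and added bases).
WT replicate 1, TRBV29 TRBJ1-6: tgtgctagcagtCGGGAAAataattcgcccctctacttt
WT replicate 3, TRBV15 TRBJ2-1: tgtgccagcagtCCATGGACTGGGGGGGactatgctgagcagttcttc
WT replicate 4, TRBV4 TRBJ2-7: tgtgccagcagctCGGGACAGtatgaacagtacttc
KO replicate 1, TRBV13-1 TRBJ2-1: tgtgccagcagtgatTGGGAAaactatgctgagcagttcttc
KO replicate 2, TRBV13-1 TRBJ2-3: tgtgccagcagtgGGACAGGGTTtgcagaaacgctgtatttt
KO replicate 3, TRBV13-2 TRBJ2-5: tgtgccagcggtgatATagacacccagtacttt
These 6 CDR3s come from the deposited clonotype tables. The segments lie on chromosome 6 (GRCm38, GENCODE vM21 annotation), for example TRBV13-2 at chr6:41121396-41121832 and TRBV29 at chr6:41271394-41271881, both on the plus strand and V genes of the TCR beta locus. The clonotype tables name no genome build. All 34 V and J segments used by the mLN clonotypes over the floor matched the annotation by name.

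In WT replicate 1 the TRBV29 TRBJ1-6 clonotype held 283 mLN and 64 spleen UMIs, which is 2.36% of the mLN and 0.568% of the spleen repertoire (4.16 times, exact 95% interval 3.16 to 5.54). In WT replicate 3 the TRBV15 TRBJ2-1 clonotype held 168 and 212 UMIs, or 0.245% and 0.0430% (5.70 times, 4.63 to 7.02). In WT replicate 4 the TRBV4 TRBJ2-7 clonotype held 363 and 389 UMIs, or 0.365% and 0.0891% (4.10 times, 3.54 to 4.74). The leading clonotypes of WT replicates 1 and 4 therefore lay near the threshold of the rule. The interval of the WT replicate 3 clonotype lay wholly above it. None of the 3 was among the 5 largest clonotypes of its mLN library: they ranked 7, 72 and 36 in WT replicates 1, 3 and 4.

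In KO replicate 1 the TRBV13-1 TRBJ2-1 clonotype held 237 mLN and 132 spleen UMIs, or 0.998% and 0.203% (4.90 times, 3.95 to 6.11). In KO replicate 2 the TRBV13-1 TRBJ2-3 clonotype held 1871 and 534 UMIs, or 1.47% and 0.342% (4.28 times, 3.88 to 4.72). In KO replicate 3 the TRBV13-2 TRBJ2-5 clonotype held 141 and 785 UMIs, or 5.67% and 0.355% (15.95 times, 13.2 to 19.1). The KO replicate 3 clonotype was the 2nd largest of its mLN library, while the KO replicate 1 and 2 clonotypes ranked 12 and 7.

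The 2 next clonotypes of KO replicate 3 stood as far from the spleen as the leading one. TRBV5 TRBJ1-6 held 89 mLN UMIs (3.58%) against 425 in the spleen (0.192%), 18.6 times (14.6 to 23.4). TRBV13-2 TRBJ1-4 held 76 (3.05%) against 300 (0.136%), 22.5 times (17.2 to 29.0). Their sequences are given because no member of the other mice held as large a share of its mLN library.
KO replicate 3, TRBV5 TRBJ1-6: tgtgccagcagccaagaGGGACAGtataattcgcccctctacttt
KO replicate 3, TRBV13-2 TRBJ1-4: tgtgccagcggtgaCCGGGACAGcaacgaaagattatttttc
In the other mice the members next in size held 0.0861% to 1.01% of mLN UMIs, and 1 of them, TRBV13-2 TRBJ2-4 of KO replicate 1 with 115 mLN and 19 spleen UMIs, lay over 10 times its spleen share (16.5 times, 10.1 to 28.5).

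**Figure D1:**
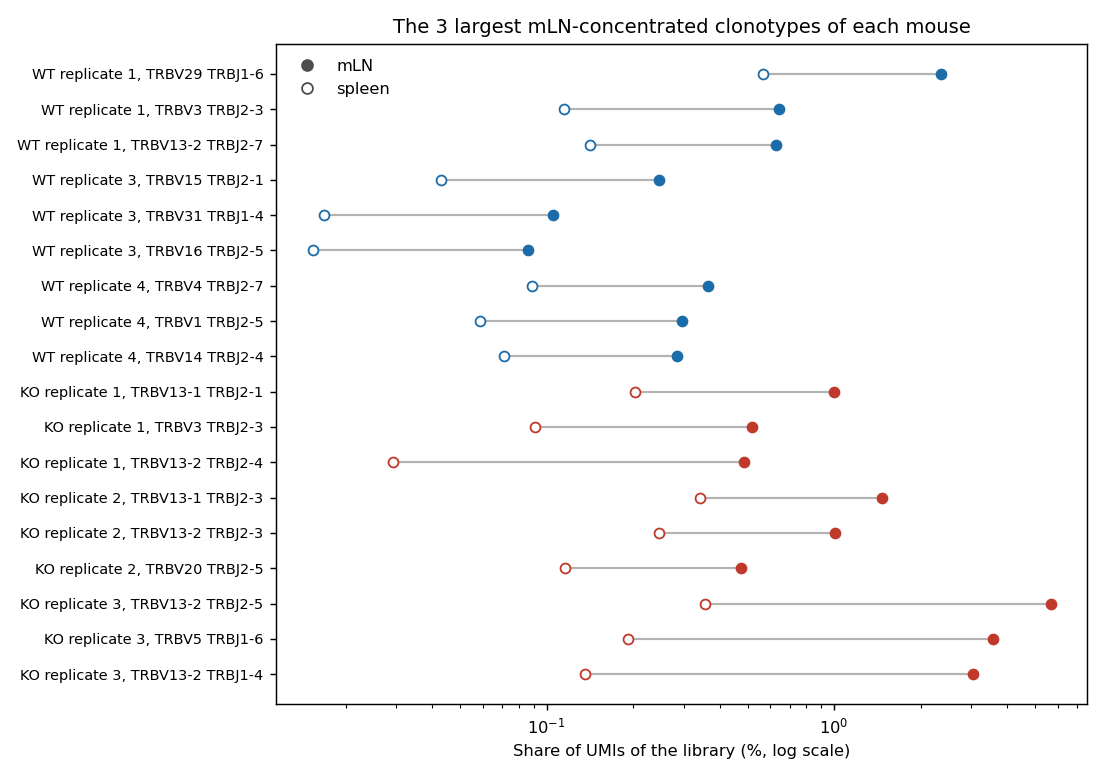
The 3 largest mLN-concentrated clonotypes of each mouse, named by mouse and by V and J segment, with the share of all UMIs of the mLN library (filled) and of the spleen library (open) in percent on a log scale. The 3 clonotypes of KO replicate 3 lie furthest to the right, from 3.05% to 5.67% of mLN UMIs, and those of WT replicate 3 furthest to the left, from 0.0861% to 0.245%.

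The number of mLN-concentrated clonotypes ran from 7 to 69 per mouse. WT replicate 1 had 69 of 323 clonotypes over the floor (21.4%), WT replicate 3 had 7 of 317 (2.21%) and WT replicate 4 had 35 of 337 (10.4%). KO replicate 1 had 59 of 287 (20.6%), KO replicate 2 had 35 of 313 (11.2%) and KO replicate 3 had 37 of 100 (37.0%). WT replicate 3 was lowest and KO replicate 3 highest by share, and the remaining WT and KO mice overlapped. The same rule with the organs exchanged found 257 spleen-concentrated clonotypes among 1800 over the spleen floor. The spleen side held 37, 35 and 36 clonotypes in WT replicates 1, 3 and 4. It held 35, 67 and 47 in KO replicates 1, 2 and 3. As a share of clonotypes over the spleen floor these were 14.2%, 10.3% and 11.1% in WT and 15.98%, 20.7% and 14.1% in KO. By number the mLN side was the larger in WT replicate 1 and KO replicate 1. It was the smaller in the other 4 mice, by 1 clonotype in WT replicate 4. By share KO replicate 3 went the other way, with 37 of 100 in the mLN (37.0%) against 47 of 333 in the spleen. The direction in the other mice was the same by number and by share.

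As a share of the mLN repertoire, the members held 10.2% of UMIs in WT replicate 1, 0.718% in WT replicate 3, 4.37% in WT replicate 4, 8.07% in KO replicate 1, 7.44% in KO replicate 2 and 33.8% in KO replicate 3. In the spleen of the same mice the same clonotypes summed to 1.75%, 0.116%, 0.738%, 1.17%, 1.503% and 3.48%. Outside KO replicate 3 these clonotypes were a minor part of the expanded mLN repertoire, since all clonotypes over the floor held 68.2% to 85.5% of mLN UMIs in these 5 mice. Of the 10 most abundant clonotypes of each mLN library, members were 1 in WT replicate 1, 1 in KO replicate 2, 6 in KO replicate 3 and 0 in the other mice.

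**Figure D2:**
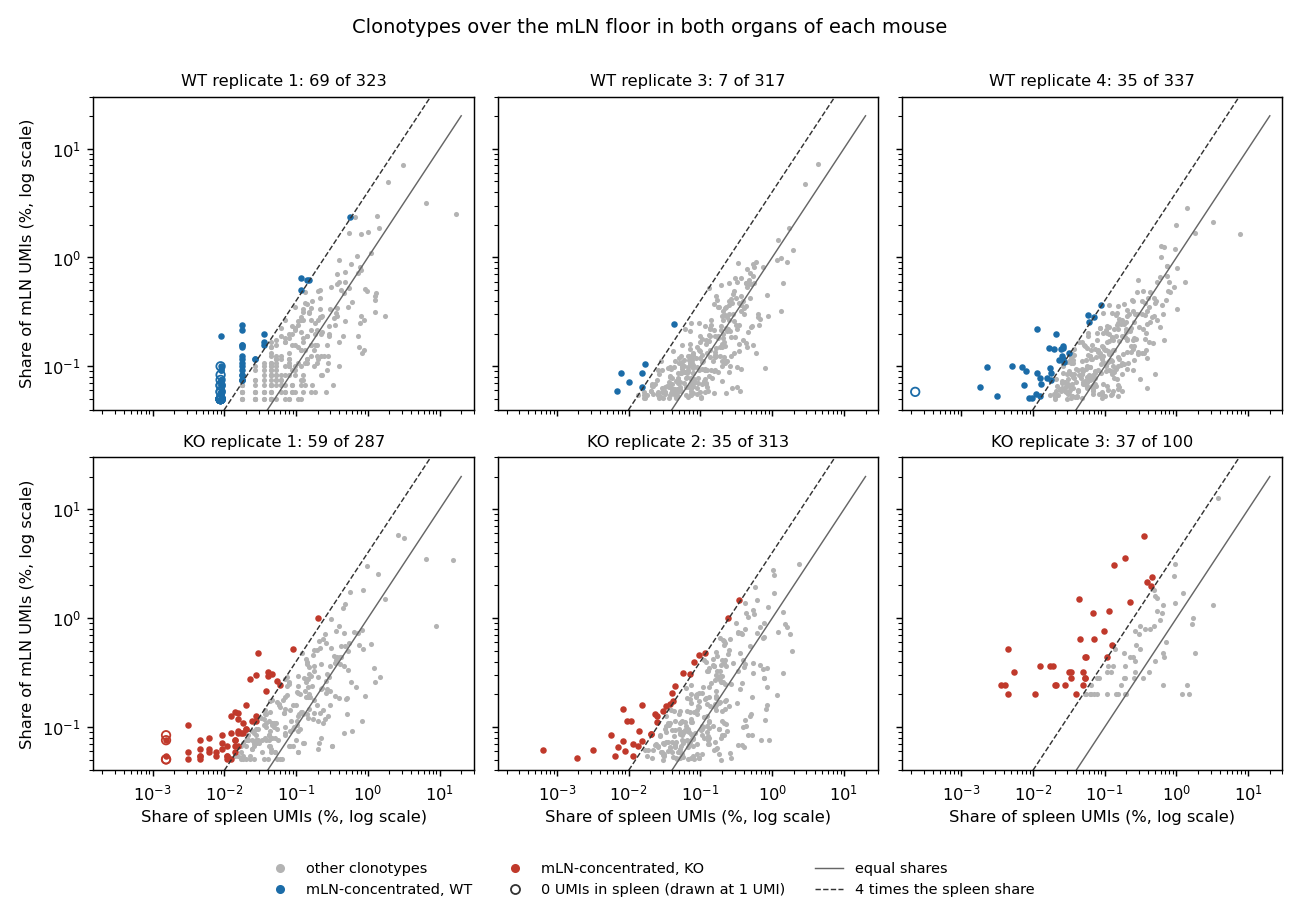
Share of mLN UMIs against share of spleen UMIs (percent, log scales) for every clonotype over the mLN floor, 1 panel per mouse, with the number of members of the number over the floor in each title; grey points are other clonotypes, colored points the members (blue in WT, red in KO), and open circles members with 0 spleen UMIs drawn at 1 UMI. Most members lie close to the dashed line of 4 times the spleen share and low on the mLN axis, except in KO replicate 3, where the floor of 5 UMIs is 0.201% and members reach 5.67%.

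Depth differed between the libraries and moved with these counts. The mLN libraries held 11987, 68536 and 99487 UMIs in WT replicates 1, 3 and 4 and 23756, 127685 and 2488 in KO replicates 1, 2 and 3, and the spleen libraries 11271, 493287, 436652, 64882, 155916 and 220935 in the same order. In KO replicate 3 the spleen library was thus 88.8 times the mLN library, against 0.940 to 7.20 times in the other mice. When each library was drawn down to 2488 UMIs (mean of 50 draws), the number of members was 23.1, 15.7 and 23.0 in WT replicates 1, 3 and 4 and 28.9, 27.2 and 42.5 in KO replicates 1, 2 and 3. At equal depth the gap between WT replicate 3 and the other WT mice narrowed, and KO replicate 3 remained highest, with 42.5% of its clonotypes over the floor against 14.1% to 25.9%.

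**Figure D3:**
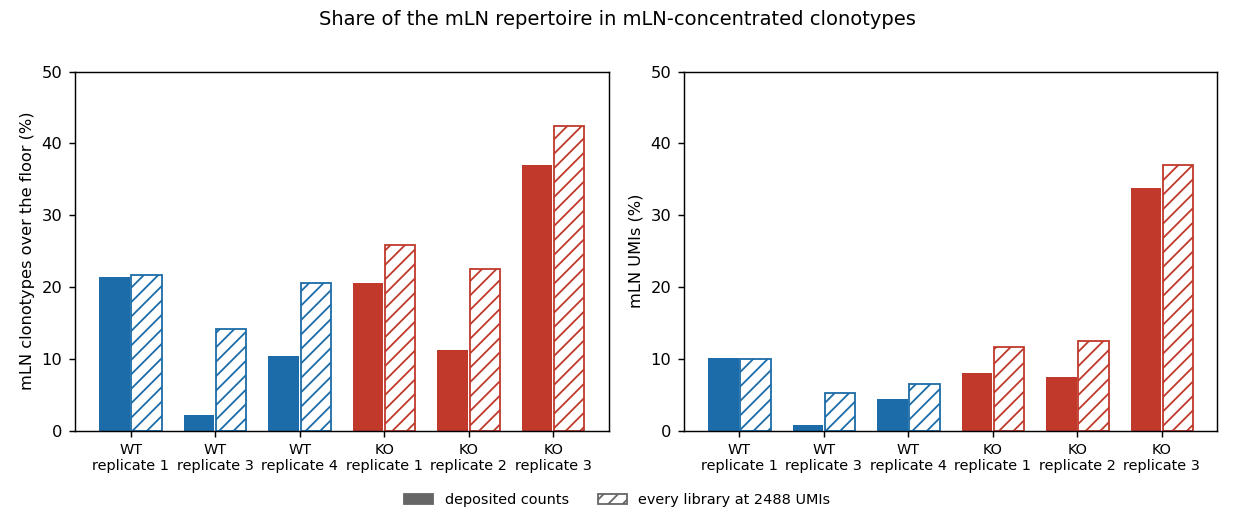
Members as a percent of the mLN clonotypes over the floor (left) and of mLN UMIs (right) in each mouse, from the deposited counts (solid) and with every library drawn to 2488 UMIs (hatched, mean of 50 draws). KO replicate 3 stands highest in both panels under both depths, at 37.0% and 42.5% of clonotypes, and WT replicate 3 rises from 2.21% to 14.1%.

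Most members stood only moderately above their spleen share. Over all mice, 153 had a ratio of 4 to 8, 54 of 8 to 16 and 35 of 16 or more, and without KO replicate 3 the numbers were 141, 42 and 22. The median ratio was 5.64, 6.24 and 5.70 in WT replicates 1, 3 and 4 and 7.35, 5.10 and 10.01 in KO replicates 1, 2 and 3. The exact 95% interval of the ratio covers counting error only. It takes no account of the choice of members by this same ratio, so the counts that follow describe the members and test nothing. The interval lay above 1 for 223 of 242 members. It lay wholly at or above 4 for 85 members: 0 in WT replicate 1, 5 in WT replicate 3, 19 in WT replicate 4, 21 in KO replicate 1, 16 in KO replicate 2 and 24 in KO replicate 3. In WT replicate 1, where the median member had 9 mLN UMIs, the counts could thus place no single member at 4 or more, and the interval of 50 of its 69 members lay above 1.

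A member was absent from the spleen library in 23 cases, 18 in WT replicate 1, 1 in WT replicate 4 and 4 in KO replicate 1. A count of 0 allows up to 3 UMIs, or 0.0266% of the spleen in WT replicate 1, 0.000687% in WT replicate 4 and 0.00462% in KO replicate 1. Folds against that limit take the mLN share as measured and leave out its counting error. On this basis the 18 clonotypes of WT replicate 1, with 6 to 12 mLN UMIs, were at least 1.88-fold to 3.76-fold higher in the mLN. None of them thus reached 4-fold. The 4 clonotypes of KO replicate 1, with 12 to 20 mLN UMIs, were at least 10.9-fold to 18.2-fold higher. The clonotype of WT replicate 4, TRBV1 TRBJ1-1 with 58 mLN UMIs (0.0583%), was at least 84.9-fold higher. The lower ends of the exact 95% intervals, which include counting error in both organs, were smaller. They were 1.11 to 2.61 in WT replicate 1, 7.59 to 13.5 in KO replicate 1 and 66.8 in WT replicate 4. Setting the absent clonotypes at this limit left the median ratio of each mouse as given above. The sequences of the largest absent clonotypes of WT replicate 4 and KO replicate 1 are shown, as these members had the best counted absence from a spleen.
WT replicate 4, TRBV1 TRBJ1-1: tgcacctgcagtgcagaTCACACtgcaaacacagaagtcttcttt
KO replicate 1, TRBV17 TRBJ1-1: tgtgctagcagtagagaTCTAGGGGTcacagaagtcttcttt

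Clonotypes just inside the threshold were close to those just outside it. The ratios nearest to 4 from above were 4.09, 4.11 and 4.01 in WT replicates 1, 3 and 4 and 4.06, 4.09 and 4.16 in KO replicates 1, 2 and 3, and the nearest from below were 3.76, 3.97, 3.97, 3.999, 3.83 and 3.83 in the same order. For example, in KO replicate 1 the TRBV12-1 TRBJ2-4 clonotype with 58 mLN and 39 spleen UMIs was a member, and the TRBV31 TRBJ1-6 clonotype with 41 and 28 was not.

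Whether the loss of AMPKα1 changed the extent of mLN concentration was addressed by comparing WT with KO mice, a contrast the rule did not use. WT mice had 37.0 ± 31.0 members and KO mice 43.7 ± 13.3 (mean ± SD over 3 mice of each genotype; difference 6.67, two-sided exact permutation p = 0.9). Members made up 11.3% ± 9.61 of clonotypes over the floor in WT and 22.9% ± 13.1 in KO (n = 3 each; difference 11.6 percentage points, exact permutation p = 0.4, adjusted p = 0.8 over 4 comparisons). They held 5.09% ± 4.77 of mLN UMIs in WT and 16.4% ± 15.0 in KO (n = 3 each; difference 11.3 points, exact permutation p = 0.3, adjusted p = 0.8). The share of members with 0 spleen UMIs was 9.65% ± 14.3 in WT and 2.26% ± 3.91 in KO (n = 3 each; exact permutation p = 0.7, adjusted p = 0.9). In each of the 4 measures the WT and KO mice overlapped, and 3 against 3 mice cannot give a p under 0.1.

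At equal depth the means over the draws no longer overlapped between the genotypes in the first 3 measures. This measure is coarser than at the deposited depth. At 2488 UMIs the floor of 5 UMIs is 0.201%, and 25.8% to 37.1% of the members of a mouse had 0 spleen UMIs. The spread between draws was not recorded. The nearest mice by share of clonotypes were WT replicate 1 at 21.6% and KO replicate 2 at 22.5%. With every library at 2488 UMIs, WT mice had 15.7 to 23.1 members and KO mice 27.2 to 42.5 (means 20.6 ± 4.26 and 32.8 ± 8.37, n = 3 each; exact permutation p = 0.1, the smallest possible, adjusted p = 0.133). Members were 14.1% to 21.6% of clonotypes over the floor in WT and 22.5% to 42.5% in KO (difference 11.5 points, n = 3 each; exact permutation p = 0.1, adjusted p = 0.133). They held 5.17% to 9.97% of mLN UMIs in WT and 11.7% to 37.0% in KO (difference 13.1 points, n = 3 each; exact permutation p = 0.1, adjusted p = 0.133). By the means over the draws, every KO mouse thus lay above every WT mouse in these 3 measures. None of the 3 differences passed the threshold of 0.05, which 3 against 3 mice cannot reach. Without KO replicate 3 the differences at equal depth were 7.43 members (exact permutation p = 0.1), 5.41 points of clonotypes (p = 0.2) and 4.85 points of UMIs (p = 0.2, adjusted p = 0.267 for all 3), an alternative added after seeing the data.

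At the deposited depth, leaving out KO replicate 3 lowered the differences in both shares. The difference between KO and WT was then 10 members (exact permutation p = 0.9), 4.55 points of clonotypes over the floor (p = 0.6), 2.67 points of mLN UMIs (p = 0.6) and −6.26 points of absent members (p = 0.9), where the smallest p with 3 against 2 mice is again 0.1. The libraries also fell into 2 kinds by the share of their clonotypes that had 1 UMI: 31.0% to 41.8% in both organs of WT replicate 1 and KO replicate 1, and 66.5% to 84.2% in both organs of WT replicates 3 and 4 and KO replicate 2. In KO replicate 3 the mLN library had 32.9% and the spleen library 83.5%, so this mouse belonged to neither kind. Within the first kind KO minus WT at the deposited depth was −10 members, −0.805 points of clonotypes, −2.10 points of UMIs and −19.3 points of absent members. Within the second kind it was 14 members, 4.89 points, 4.90 points and −1.43 points. The first 3 differences therefore changed sign between kinds that hold 2 and 3 mice. At equal depth they did not: they were 5.80 members, 4.23 points of clonotypes and 1.72 points of UMIs in the first kind and 7.82, 5.16 and 6.60 in the second. The part of library kind in the genotype comparison was not tested further.

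Members were next compared with the other mLN clonotypes over the floor, first in 4 features of the sequence that the rule did not use. CDR3 length, which is set by trimming and addition at the joins, was 41.2 ± 1.02 nucleotides in members and 41.3 ± 0.191 in the others (mean ± SD of mouse means, n = 6; exact sign-flip permutation p = 0.75). The stretch between V and J was 8.61 ± 1.42 and 8.42 ± 0.166 bases (n = 6; exact sign-flip permutation p = 0.6875). CDR3s in frame and without a stop codon, the only ones that can code for a receptor chain, are called in-frame here. They were 95.9% ± 3.05 of members and 94.4% ± 2.70 of the others (n = 6; exact permutation p = 0.4375), and 230 of the 242 members were of this kind. The mean hydropathy (Kyte-Doolittle scale, on which positive values are hydrophobic) of CDR3 positions 6 and 7, residues that contact peptide, was −1.11 ± 0.327 and −1.25 ± 0.137 (n = 6; exact permutation p = 0.34375). All 4 differences were smaller than their spread between mice (adjusted exact permutation p = 0.65625 to 0.75 over 6 features, and 0.5 to 0.75 without KO replicate 3).

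The other features measured how often the same CDR3 was found again. The rule holds members at low spleen shares, and sharing with other mice moved with abundance, as given below. The comparisons of sharing are therefore not independent of the rule. Sharing with other mice is also counted between the same mice, so the values of the mice depend on each other. The sign-flip test assumes independent mice, which limits the p-values for such sharing here and below. The amino acid CDR3 of an in-frame clonotype was also present in another mouse for 27.5% ± 17.7 of members and 53.6% ± 19.5 of the others, a difference of −26.2 ± 15.5 points that was seen in 5 of 6 mice (exact sign-flip permutation p = 0.0625, adjusted p = 0.1875, n = 6; −25.1 points and adjusted p = 0.375 without KO replicate 3). The exception was KO replicate 2, with 13 of 34 members (38.2%) and 85 of 249 others (34.1%). A second nucleotide sequence for the same amino acid CDR3 in the same mouse, with 2 or more differences, was found for 10.1% ± 13.02 of members and 19.3% ± 15.9 of the others, lower in 5 of 6 mice (difference −9.20 ± 10.2, exact permutation p = 0.0625, adjusted p = 0.1875, n = 6). Neither passed the threshold of 0.05, and the smallest adjusted p that 1 feature alone could reach with 6 mice is 0.1875.

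How the match arose was then measured, after seeing the data. The difference was larger for identical nucleotide sequences than for other nucleotide sequences of the same amino acid CDR3. These 2 measures are not parts of a whole. A clonotype can count in both, and a match that differs at only 1 base counts in neither. The first covers all clonotypes over the floor and the second the in-frame ones. The nucleotide CDR3 of a member was also present in another mouse for 5 of 69 clonotypes in WT replicate 1, 1 of 7 in WT replicate 3, 3 of 35 in WT replicate 4, 7 of 59 in KO replicate 1, 5 of 35 in KO replicate 2 and 17 of 37 in KO replicate 3. For the other clonotypes it was 112 of 254, 111 of 310, 122 of 302, 91 of 228, 61 of 278 and 55 of 63. The mean share was 17.0% ± 14.5 in members and 44.9% ± 22.2 in the others, lower in 6 of 6 mice (difference −27.9 ± 12.1 points, exact sign-flip permutation p = 0.03125, the smallest that 6 mice can give). Without KO replicate 3 the difference was −25.2 points (exact permutation p = 0.0625, the smallest for 5 mice). By contrast, the same amino acid CDR3 from another nucleotide sequence, with 2 or more differences, was found in another mouse for 10.1% ± 8.88 of members and 12.3% ± 3.20 of the others (difference −2.19 ± 10.4, exact permutation p = 0.6875, n = 6). When an amino acid CDR3 counted only at 5 or more UMIs in the other mouse, it was found for 11.1% ± 9.48 of members and 18.5% ± 21.7 of the others (difference −7.43 ± 15.7 points, exact permutation p = 0.3125, n = 6; −1.75 points without KO replicate 3), with KO replicate 2 higher in members by 12.4 points. The larger difference above thus included matches to copies of 1 to 4 UMIs.

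Abundance moved with this sharing. The median spleen share of members was 0.00887% to 0.0493% and that of the other clonotypes 0.106% to 0.298%, which follows from the rule. Among clonotypes of 0.05% to 0.2% of mLN UMIs, where KO replicate 3 has none, the share found in another mouse was 10.1% in members and 23.3% in the others, a difference of −13.2 points in 5 mice (exact permutation p = 0.0625). Copies elsewhere were small: the median of the largest count in another mouse was 1 UMI for the shared members of each mouse but KO replicate 3, where it was 4 UMIs. For the shared other clonotypes this median was likewise 1 UMI in each mouse but KO replicate 3, where it was 7 UMIs. In KO replicate 3, all 17 shared members and all 55 shared other clonotypes were found in the mLN library of KO replicate 2, against 0 and 9 in its spleen library. Shared sequences lay largely in single libraries in other mice too. The mLN library of WT replicate 3 held all 3 shared members and 97 of 122 shared others of WT replicate 4. The spleen library of WT replicate 4 held 95 of 111 shared others of WT replicate 3. That of KO replicate 3 held 50 of 91 of KO replicate 1. The part of spleen abundance and of sequences passing between libraries in the lower sharing of members was not tested.

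**Figure D4:**
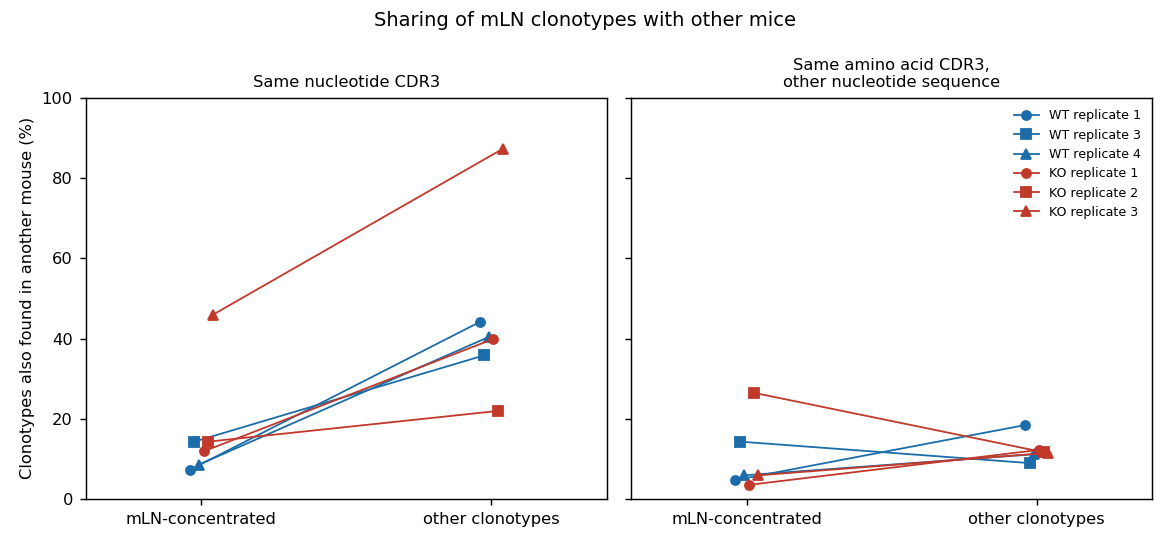
Percent of mLN clonotypes over the floor that were also found in another mouse, for members and for the other clonotypes of each mouse (1 line per mouse, blue for WT and red for KO), by identical nucleotide CDR3 (left) and by the same amino acid CDR3 from another nucleotide sequence with 2 or more differences (right, in-frame clonotypes). On the left all 6 lines rise from members to others (means 17.0% and 44.9%), while on the right 4 rise and 2 fall (means 10.1% and 12.3%).

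No nucleotide CDR3 and no amino acid CDR3 was a member in 2 mice. Only 3 members held a larger share of a library of another mouse, and they are shown because their labelled mouse is not where they were most frequent.
WT replicate 1, TRBV20 TRBJ2-2: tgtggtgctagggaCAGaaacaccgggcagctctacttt
KO replicate 2, TRBV26 TRBJ2-1: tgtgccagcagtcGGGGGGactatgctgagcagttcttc
KO replicate 2, TRBV5 TRBJ2-4: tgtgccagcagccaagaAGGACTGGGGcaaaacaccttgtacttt
The TRBV20 TRBJ2-2 sequence had 6 mLN and 0 spleen UMIs in WT replicate 1, but 52 mLN (0.0759%) and 565 spleen UMIs (0.115%) in WT replicate 3. The TRBV26 TRBJ2-1 sequence had 78 mLN UMIs (0.0611%) and 1 spleen UMI in KO replicate 2, and 318 mLN (12.8%) and 8505 spleen UMIs (3.85%) in KO replicate 3. The TRBV5 TRBJ2-4 sequence had 66 mLN UMIs (0.0517%) and 3 spleen UMIs in KO replicate 2, and 33 mLN (1.33%) and 7209 spleen UMIs (3.26%) in KO replicate 3. In KO replicate 2 these 2 sequences had ratios of 95.2 and 26.9. Leaving out all clonotypes with a larger share elsewhere gave 68 of 321 in WT replicate 1 and 33 of 309 in KO replicate 2, with the other counts of members as above. No member differed by 1 base from a clonotype of the same mLN library that was 10 or more times larger.

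The same amino acid CDR3 can be made by 2 cells from different nucleotides. Over all mice, 21 members had a synonymous sequence with 2 or more differences in the same mouse, and 1 of these sequences reached 10 or more mLN UMIs. It was a TRBV14 sequence in WT replicate 4, with 119 mLN and 149 spleen UMIs (3.51 times), beside a TRBV4 TRBJ2-3 member of 97 mLN UMIs (5.68 times), so both held a larger share of the mLN.

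V and J segments were then compared by the number of clonotypes that used them, each counted once whatever its size, with the mouse as a block. Of 21 V segments tested, 1 passed (4.76%), and 2 had an unadjusted p under 0.05. TRBV12-1 (chr6:41113550-41114067, plus strand, GRCm38) was used by 4 of 69 members in WT replicate 1, 0 of 7 in WT replicate 3, 2 of 35 in WT replicate 4, 4 of 59 in KO replicate 1, 1 of 35 in KO replicate 2 and 2 of 37 in KO replicate 3. Of the other clonotypes it was used by 2 of 254, 3 of 310, 5 of 302, 3 of 228, 4 of 278 and 1 of 63. The mean share was 4.43% ± 2.53 of members and 1.29% ± 0.347 of the others (SD over 6 mice), higher in members in 5 of 6 mice (log2 fold change 1.94, edgeR quasi-likelihood adjusted p = 0.0166). Leaving out KO replicate 3 gave a log2 fold change of 1.98 and an edgeR adjusted p of 0.0218.

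The TRBV12-1 members had different joins and J segments. The largest in KO replicate 3, TRBV12-1 TRBJ2-1 with 60 mLN (2.41%) and 1009 spleen UMIs (0.457%), and the largest in each other mouse that had any are shown to let the shared V end be compared with the joins.
KO replicate 3, TRBV12-1 TRBJ2-1: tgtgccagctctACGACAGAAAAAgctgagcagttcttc
KO replicate 1, TRBV12-1 TRBJ2-4: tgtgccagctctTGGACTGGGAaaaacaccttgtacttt
KO replicate 2, TRBV12-1 TRBJ2-2: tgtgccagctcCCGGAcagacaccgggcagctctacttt
WT replicate 4, TRBV12-1 TRBJ2-1: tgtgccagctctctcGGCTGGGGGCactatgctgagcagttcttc
WT replicate 1, TRBV12-1 TRBJ1-6: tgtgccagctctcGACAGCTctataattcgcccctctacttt
The 13 TRBV12-1 members of the 5 mice held between 6 and 163 mLN UMIs, and their ratios ran from 4.06 to 66.6.

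The TRBV12-1 result rested on few clonotypes and on how a near-identical segment was counted. TRBV12-2 (chr6:41118851-41119364), a close paralog, was used by 0 members and 15 of the 1435 others (log2 fold change −3.64, edgeR adjusted p = 0.369), and no member listed more than 1 V segment. Counted as 1 segment, TRBV12-1 and TRBV12-2 were used by 13 members (5.37%) and 33 others (2.30%), with a log2 fold change of 1.15 that did not pass (edgeR adjusted p = 0.602). The TRBV12-1 call was also lost without WT replicate 1 (adjusted p = 0.246), WT replicate 4 (0.0858) or KO replicate 1 (0.131).

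TRBV3 had the next smallest p and was used by 13 members and 127 others, a smaller share of members in 6 of 6 mice (mean 3.96% ± 3.61 against 8.81% ± 1.86, log2 fold change −0.84, edgeR adjusted p = 0.425). The TRBV13 family, which includes the most used V segment, was used by 68 of 242 members (28.1%) and 344 of 1435 others (24.0%). Of 12 J segments 0 passed edgeR's test (0%), with 0 at an unadjusted p under 0.05 (DESeq2 called 0, with 1 unadjusted). The smallest p belonged to TRBJ2-2 (log2 fold change −1.07, edgeR adjusted p = 0.462), TRBJ1-6 (1.23, 0.462) and TRBJ1-3 (−0.50, 0.744). The TRBJ2 cluster was used by 63.6% of members and 67.0% of the others, and a TRBD1 segment was assigned to 43.0% and 41.9%.

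**Figure D5:**
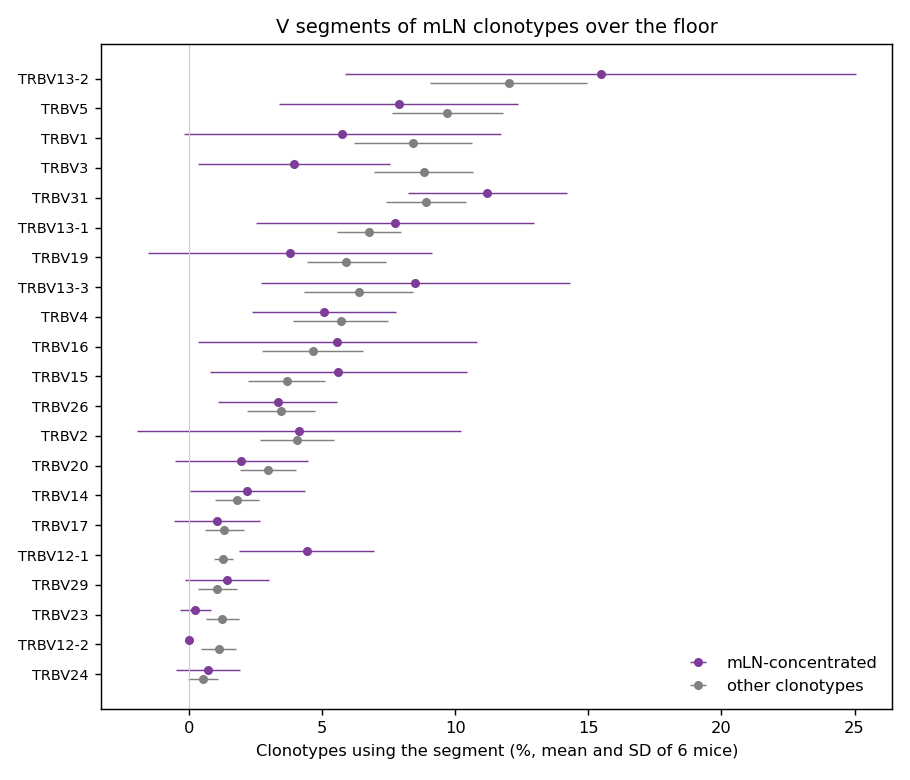
Percent of mLN clonotypes over the floor that used each of the 21 V segments tested, as the mean and SD of 6 mice, for members (purple) and the other clonotypes (grey), ordered by use among the others. TRBV12-1 lies at 4.43% of members and 1.29% of the others, and for most segments the bars of the 2 sets overlap.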

How the data were processed

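According to the study's methods, TCR beta cDNA was made by 5′ RACE with UMIs, sequenced on a MiSeq (2 × 150 nt), collapsed with MIGEC and assembled into clonotypes with MiXCR. Versions, the V and J reference and reads per UMI were not given in the sources used here. The deposited counts are whole UMIs per clonotype, and the deposited fraction is that count over the library total. The deposited tables are not downsampled. Errors left by UMI collapsing or clonotype assembly would add small clonotypes.

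Counts of 1 CDR3 were summed per library. Ratio intervals are exact (95%, conditional binomial) and cover counting error only, not the choice of members by the ratio. For equal depth, 2488 UMIs were drawn from each library 50 times. WT and KO were compared over mice by exact two-sided permutation (20 assignments, 10 without KO replicate 3), members and others within mice by sign-flip permutation (64 patterns), with Benjamini-Hochberg adjustment over 4 and 6 results. Segments with 10 or more clonotypes were tested by edgeR 4.0.16 quasi-likelihood with the mouse as a block (R 4.3.3; DESeq2 1.42.0 as an alternative). The scripts were tested on simulated data. Named clonotypes were, per mouse, the 3 largest members, the largest with 0 spleen UMIs, those just inside and outside the threshold, and all members more frequent in another mouse. Named segments were those that passed and the 3 with the smallest p. The TRBV12-1 clonotypes printed and KO replicate 3's were chosen after their values were seen. The rule, the lists and the tests were chosen with earlier results of these data known. The labels do not say whether donor cells were pooled, so p-values measure only the spread between these mice. Alternatives were other folds, floors, UMI minimums and values for absent sequences, equal depth, TMM, DESeq2 and each mouse left out. Those on equal depth without KO replicate 3, sequences found in other mice, the abundance band and the merged TRBV12 segments were added after seeing the data.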

Additional observations from a re-analysis of the deposited data

Results flagged for a closer look

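In 11 results checked for 1 mouse apart from the other 5, 3 mice stood apart by Dixon's test, which flags about 1 in 20 groups by chance. KO replicate 3 held 33.8% of its mLN UMIs in mLN-concentrated clonotypes, against 0.718% to 10.2% in the other mice. WT replicate 1 had 26.1% of its members at 0 spleen UMIs, against 0% to 6.78%; it also had the smallest spleen library, with 11271 UMIs. In KO replicate 2 the share of members with their amino acid CDR3 in another mouse was 4.10 points above that of its other clonotypes, whereas it was lower in the other mice. No cause was tested.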

How the results depend on the processing

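Over 19 results, 298 alternative values were computed: 259 kept the direction and the side of the threshold, 22 kept only the direction and 17 reversed. Some of the 259 repeat the main value. Defining a clonotype by CDR3 with V and J segment, or leaving out neighbours of larger clonotypes, changed no genotype or feature difference. In-frame clonotypes alone could not change hydropathy or the 2 amino acid features. Feature differences were also the same without the mouse as a block. The number of V segments that passed fell from 1 to 0 with TMM, with DESeq2, at 2 or 8 times the spleen share, and with TRBV12-1 and TRBV12-2 as 1 segment, and ran from 0 to 1 with each mouse left out. The TRBV12-1 log2 fold change stayed between 1.12 and 2.11, with edgeR or DESeq2 adjusted p from 0.00432 to 0.555. The nucleotide sharing difference was −13.2 points at 0.05% to 0.2% of mLN UMIs and −31.9 to −25.2 with each mouse left out, where 5 mice cannot give a p under 0.0625.

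The reversals were among differences that had not passed a test. At 2 times the spleen share the in-frame difference was −1.39 points and the log2 fold changes of TRBV3 and TRBJ1-3 were 0.0075 and 0.0023. At 8 times, the V to J stretch differed by −0.83 bases and hydropathy by −0.033. CDR3 length differed by 0.914 nucleotides with a floor of 0.1%, by 0.168 with at least 10 UMIs and by 0.301 at equal depth, where the in-frame difference was −1.68 points. KO minus WT in absent members was 1.31 points with absence counted as 3 UMIs and 1.04 at equal depth, where the other 3 genotype differences were 12.2 members, 11.5 points of clonotypes and 13.1 points of UMIs (exact permutation p = 0.1 each, against 0.9, 0.4 and 0.3 at the deposited depth). With each mouse left out, KO minus WT ran from −8.33 to 22.7 members (−8.33 without WT replicate 3, −1 without KO replicate 1) and from −12.2 to 0.831 points of absent members (0.831 without WT replicate 1), CDR3 length from −0.399 to 0.0866 and the V to J stretch from −0.127 to 0.582. The causes were not tested.

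WT and KO share replicate numbers 1 and 3, which are different mice. Treating the number as a replicate block in these 2 pairs gave KO minus WT of 10 members, 17.0 points of clonotypes over the floor, 15.5 points of mLN UMIs and −9.65 points of absent members, and no call changed. Without the mouse as a block, 1 V segment and 0 J segments passed edgeR's test, and the TRBV12-1 log2 fold change was 2.02. Depth limits what can be said of single members in WT replicate 1, whose floor was 6 UMIs, and in KO replicate 3, whose floor was 5 UMIs.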
